A study of Homo sapiens with 4 samples.

Results

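GRB2, SHC1, GAB2, SOS1, CRK, CRKL, CBL, PTPN11, INPP5D and DOK1 encode the adaptor proteins, the ubiquitin ligase and the phosphatases that gather at the BCR-ABL kinase. They were taken by gene symbol from the expression table, where all 10 were found among 32673 genes. BCR-ABL, the fusion kinase of chronic myeloid leukaemia (CML) and the target of imatinib, phosphorylates tyrosines on itself and on its substrates, and these become docking places for proteins with SH2 or PTB domains. GRB2 docks on the BCR portion of the fusion, bringing with it SOS1, which loads RAS with GTP, and GAB2, which in turn holds the phosphatase SHP2 (PTPN11) and PI3K. CRKL and CBL are among the most heavily phosphorylated proteins of CML cells, while the lipid phosphatase SHIP1 (INPP5D) and the docking protein DOK1 are known as brakes on the same signals.

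TF1 is a human erythroleukaemia line that needs GM-CSF to grow. TF1-BA cells are TF1 cells infected with a BCR-ABL retrovirus and are sensitive to imatinib, and TF1-BAR cells came from them by continuous imatinib treatment and are resistant. Both carry the viral BCR-ABL, and by the labels both were grown in RPMI-1640 with 2 ng/ml GM-CSF and 10% serum, with 2 uM imatinib added for TF1-BAR. The paper's methods give a higher GM-CSF concentration than the labels, and which was used for these libraries is not known. Each is 1 cell line, so that resistance, drug exposure and any other difference between the lines cannot be told apart, and it is not given whether imatinib was still present when the RNA was taken. There were 2 RNA sequencing libraries per line, each from 10000000 cells. Nothing in the labels says that the replicates were separate cultures, and p-values then measure the spread between these libraries, which may be technical. The resistant libraries carry the title VECTOR beside the name TF1-BAR, and they were used under the latter name. Whether these cells carried an empty vector that the TF1-BA cells lacked is not given, and such a difference could not be told apart from resistance.

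The values are FPKM, counts of sequenced fragments divided by transcript length and library size. Their totals over all genes were 304178 and 304529 in TF1-BA and 289293 and 291217 in TF1-BAR, and rescaling each library to an equal total (TPM) moved the median log2 fold change of all genes from 0.066 to 0.125. The library sizes by which the values had been divided were recovered from the FPKM as 18042299 and 15465497 fragments in TF1-BA and 15761642 and 16074303 in TF1-BAR. Fragments recovered per gene sum to slightly more than these sizes. Inexact gene lengths or fragments counted for overlapping genes would both do this, and the cause was not tested. Across the 15519 genes tested the 2 libraries of a line correlated at 0.983 in TF1-BA and 0.979 in TF1-BAR, and libraries of different lines at 0.946 to 0.956. All 10 markers fixed for TF1 cells were expressed, at a summed 321 to 329 FPKM in TF1-BA and 410 to 436 FPKM in TF1-BAR, with CD34, CD33, KIT and TAL1 higher and ANPEP lower in TF1-BAR. Of 11 markers of T cells, B cells, epithelium, fibroblasts and endothelium in the table, 6 were below the filter on low values, among them CD3E, CD3G, EPCAM, COL1A1, COL1A2 and VWF. The summed level of the 11 was 55.1 to 58.2 FPKM in TF1-BA, most of it PECAM1 and CD3D. In TF1-BAR it was 46.1 to 49.5 FPKM, most of it PECAM1 and KRT8. CD79A and KRT8 were higher in TF1-BAR and CD3D was lower, while PECAM1 did not pass the test. Their part in the results was not tested, and in a bulk library fewer cells that express a gene and less RNA per cell cannot be told apart.

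The promoters of the 4 members that passed the test are shown first. A link between these sequences and the expression values was not tested. Each is the 250 bases before a RefSeq start on GRCh38.p14, read 5′ to 3′ on the gene's strand. AGGAAG, a form of the ETS factor site, is in capitals. INPP5D lies on the plus strand (chr2:233060092-233060341), CRKL on the plus strand (chr22:20917157-20917406), SOS1 on the minus strand (chr2:39121052-39121301) and DOK1 on the plus strand (chr2:74554470-74554719). All 4 start sites are those of the MANE Select transcript. GAB2, SOS1, SHC1 and DOK1 each have 2 RefSeq starts, and only the MANE Select start was searched.
INPP5D: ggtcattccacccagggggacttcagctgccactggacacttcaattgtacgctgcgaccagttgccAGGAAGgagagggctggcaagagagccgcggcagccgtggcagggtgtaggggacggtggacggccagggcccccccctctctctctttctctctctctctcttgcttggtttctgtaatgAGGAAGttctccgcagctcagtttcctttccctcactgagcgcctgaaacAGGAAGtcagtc
CRKL: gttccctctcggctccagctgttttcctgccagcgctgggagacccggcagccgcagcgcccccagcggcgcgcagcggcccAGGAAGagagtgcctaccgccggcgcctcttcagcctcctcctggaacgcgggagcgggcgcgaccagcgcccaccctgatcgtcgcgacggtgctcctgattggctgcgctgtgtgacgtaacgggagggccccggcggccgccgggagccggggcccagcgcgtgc
SOS1: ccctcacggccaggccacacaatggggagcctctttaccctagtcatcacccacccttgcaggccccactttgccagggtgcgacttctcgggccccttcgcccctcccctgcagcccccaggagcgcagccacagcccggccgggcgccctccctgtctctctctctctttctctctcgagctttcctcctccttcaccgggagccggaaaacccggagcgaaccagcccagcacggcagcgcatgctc
DOK1: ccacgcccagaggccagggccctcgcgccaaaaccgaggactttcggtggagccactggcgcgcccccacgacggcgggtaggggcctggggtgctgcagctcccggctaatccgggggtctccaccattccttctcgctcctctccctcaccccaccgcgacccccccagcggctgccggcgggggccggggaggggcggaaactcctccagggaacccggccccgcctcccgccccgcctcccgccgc

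INPP5D, whose product is found mainly in blood cells, held AGGAAG in 3 places, at 183 to 178, 62 to 57 and 12 to 7 bases before the start. CRKL held it once, at 168 to 163 bases before the start, and SOS1 and DOK1 did not hold it on either strand (reverse complement CTTCCT). The 4 sequences differ in composition, from 59.2% GC in INPP5D and 67.2% in SOS1 to 74.4% in CRKL and 76.0% in DOK1. Of the other members with an entry in the promoter table, GAB2 held the motif once, on the opposite strand, and GRB2, SHC1 and CRK did not. CBL and PTPN11 had no entry. Over 35116 RefSeq promoters of the same length, 28.7% held AGGAAG on either strand. AGATAA (reverse TTATCT), the GATA factor motif, stood in 9.17% of all promoters, and TTCNNNGAA, the STAT motif, in 6.57%, and neither was found in the 8 members. These are matches of letters and not shown to be sites of binding. Shorter or other forms of the motifs were not counted, so a promoter without AGGAAG may still hold an ETS site.

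The question addressed by the comparison of TF1-BAR with TF1-BA was how the expression of the BCR-ABL docking proteins differs between resistant and sensitive cells. The differences were small. SOS1, CRKL and INPP5D were higher in TF1-BAR by 26.0% to 43.0% of their TF1-BA means, DOK1 fell by 26.2%, and the other 6 members did not pass the test. The test was limma on log2(FPKM + 0.5), with p-values adjusted by the Benjamini-Hochberg method over all genes tested, and log2 fold changes (log2FC, TF1-BAR minus TF1-BA) are on that scale. At an adjusted p under 0.05, 3 of 10 members were higher, beside 16.3% of all genes tested, and 1 of 10 was lower, beside 10.5% (4 of 10 in either direction, beside 26.9%). 0 of 10 members had in addition a log2FC of at least 1 in size, beside 4.75% of all genes (3.05% higher and 1.69% lower), and the largest in size among them was 0.50. By limma with no adjustment, 6 members were higher and 1 lower at p under 0.05, beside 42.2% of all genes in either direction. With limma voom on recovered fragments, 7 members had an adjusted p under 0.05, beside 37.9% of all genes, and again 0 passed both thresholds, beside 7.38%.

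By direction alone, 9 members had a positive log2FC and 1 a negative one, where 57.3% of all genes tested were above 0. The median log2FC of the members was 0.30, and that of all genes tested was 0.07. Both TF1-BAR libraries lay above both TF1-BA libraries for 8 members, a pattern found in 40.9% of all genes, and below them for 1 member, DOK1, as in 28.4% of all genes (69.3% in either direction). PTPN11 was the member whose libraries overlapped. The summed level of the 10 genes was 249.5 to 251.9 FPKM in TF1-BA and 283.1 to 303.9 FPKM in TF1-BAR. The number of members called higher depended on the fit, and so did the share of all genes. It was 0 with no filter on low values (2.76% of all genes) and with eBayes run without its trend (12.4%), and 6 after rescaling to TPM (20.5%) and by voom (22.4%).

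**Figure D1:**
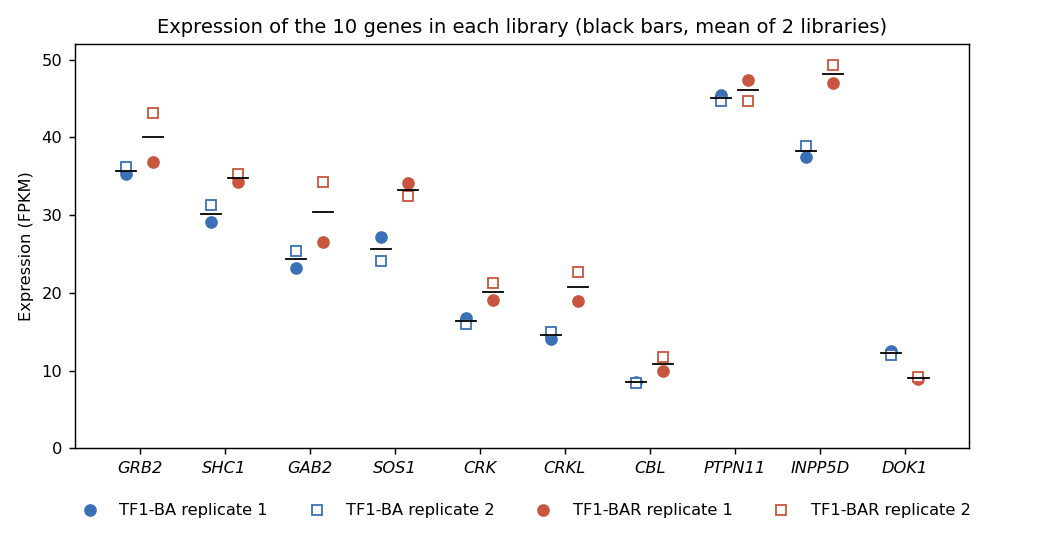
Expression of the 10 genes in FPKM (y axis, from 0) in each of the 4 libraries, with circles for replicate 1, squares for replicate 2, blue for TF1-BA, red for TF1-BAR and black bars for the mean of 2 libraries. DOK1 is the gene whose TF1-BAR libraries both lie below TF1-BA (9.03 against 12.2 FPKM), and PTPN11 the gene whose libraries overlap.

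GRB2 (ENSG00000177885, chr17:75318076-75405709, minus strand), the SH2 and SH3 adaptor that links BCR-ABL to RAS activation, was measured at 35.3 and 36.2 FPKM in TF1-BA and 36.9 and 43.1 FPKM in TF1-BAR. The libraries did not overlap, but 1 of the TF1-BAR libraries lay close to TF1-BA. The means were 35.7 ± 0.628 and 40.0 ± 4.43 FPKM (SD, n = 2 per line), with a log2FC of 0.16 (95% interval -0.08 to 0.39, adjusted p = 0.256, limma). Without TF1-BAR replicate 1 the log2FC was 0.27, and without TF1-BAR replicate 2 it was 0.045. GRB2 was among the more abundant members, with 2638 to 3270 fragments per library.

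SHC1 (ENSG00000160691, chr1:154962298-154974395, minus strand), an adaptor that is itself phosphorylated and then binds GRB2, stood at 29.1 and 31.3 FPKM in TF1-BA and 34.2 and 35.3 FPKM in TF1-BAR. Both resistant libraries were higher, by 15.3% on average, and the log2FC of 0.20 (SE 0.0684, 95% interval 0.03 to 0.38) did not pass the test (adjusted p = 0.0877, limma). Its annotated exons share 335 of 4342 bases with PYGO2 on the same strand, which was at 11.7 and 11.2 FPKM in TF1-BA and 15.0 and 16.8 FPKM in TF1-BAR, and the part of shared fragments in the SHC1 values was not tested.

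GAB2 (ENSG00000033327, chr11:78215297-78418348, minus strand) encodes the scaffold that GRB2 carries to BCR-ABL and that binds SHP2 and the regulatory subunit of PI3K. It was at 23.2 and 25.4 FPKM in TF1-BA and at 26.5 and 34.3 FPKM in TF1-BAR, so that TF1-BAR replicate 2 stood apart from the other 3 libraries. The means were 24.3 ± 1.60 and 30.4 ± 5.48 FPKM, and the log2FC of 0.31 (95% interval -0.04 to 0.66) had an adjusted p of 0.157 in limma. Without TF1-BAR replicate 1 the log2FC was 0.49, and without TF1-BAR replicate 2 it was 0.13, the lowest of 18 alternative fits.

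SOS1 (ENSG00000115904, chr2:38981396-39124345, minus strand), the exchange factor that loads RAS with GTP, was higher in TF1-BAR. Its level was 27.2 and 24.1 FPKM in TF1-BA and 34.1 and 32.4 FPKM in TF1-BAR, and no library of one line reached the other. The means of 25.6 ± 2.15 and 33.3 ± 1.17 FPKM differed by 29.7%, with a log2FC of 0.37 ± 0.0827 (SE, 95% interval 0.16 to 0.58, adjusted p = 0.0328, limma). Without TF1-BA replicate 1 or replicate 2 the log2FC was 0.45 or 0.29. Without TF1-BAR replicate 1 or replicate 2 it was 0.34 or 0.41. Such a fit leaves a lone library in a line and calls fewer of all genes, so its adjusted p is not given. The log2FC stayed between 0.29 and 0.46 in the 18 alternative fits, of which 12 gave an adjusted p under 0.05. The annotated exons of SOS1 share 1254 of 22984 bases with SOS1-IT1 on the same strand, which was at 11.2 and 8.92 FPKM in TF1-BA and 11.1 and 8.04 FPKM in TF1-BAR.

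CRKL (ENSG00000099942, chr22:20917426-20953749, plus strand) and CRK (ENSG00000167193, chr17:1420689-1463162, minus strand) are closely related adaptors made of SH2 and SH3 domains, and CRKL phosphorylation is the usual readout of BCR-ABL activity in patients. CRKL had the largest log2FC of the 10 members. It was at 14.1 and 15.0 FPKM in TF1-BA and at 19.0 and 22.6 FPKM in TF1-BAR, with means of 14.5 ± 0.669 and 20.8 ± 2.59 FPKM, 43.0% apart. The groups did not overlap, and the log2FC was 0.50 ± 0.105 (SE, 95% interval 0.23 to 0.77, adjusted p = 0.0293, limma). Without TF1-BA replicate 1 or replicate 2 the log2FC was 0.45 or 0.54. Without TF1-BAR replicate 1 or replicate 2 it was 0.62 or 0.37. The log2FC ranged from 0.37 to 0.62 over the 18 alternative fits, of which 13 gave an adjusted p under 0.05. The other tested genes within 5 Mb of CRKL had a median log2FC of 0.07.

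CRK was at 16.8 and 15.9 FPKM in TF1-BA and at 19.1 and 21.2 FPKM in TF1-BAR. Its libraries did not overlap either, but the difference of 23.3% missed the threshold (log2FC 0.29, 95% interval 0.08 to 0.50, adjusted p = 0.0546, limma). Of 18 alternative fits 6 gave an adjusted p under 0.05, among them voom at 0.0180. Without TF1-BA replicate 1 or replicate 2 the log2FC was 0.33 or 0.26. Without TF1-BAR replicate 1 or replicate 2 it was 0.37 or 0.22. In TF1-BA, CRK was above CRKL in both libraries, with CRK to CRKL ratios of 1.19 and 1.06, and in TF1-BAR the ratios were 1.01 and 0.937.

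CBL (ENSG00000110395, chr11:119206276-119313926, plus strand), the ubiquitin ligase that marks activated tyrosine kinases for removal and is a major phosphorylated substrate of BCR-ABL, had the lowest mean level of the 10 over the 4 libraries. It was at 8.51 and 8.45 FPKM in TF1-BA and at 9.97 and 11.8 FPKM in TF1-BAR. The TF1-BA libraries were nearly equal (SD 0.0414) and those of TF1-BAR were spread more widely (SD 1.29), and the log2FC of 0.34 (95% interval 0.08 to 0.60) had an adjusted p of 0.0663 in limma. Without TF1-BAR replicate 1 the log2FC was 0.45, and without TF1-BAR replicate 2 it was 0.22. Without TF1-BA replicate 1 or replicate 2 it was 0.34 or 0.33. MCAM, whose exons share 509 bases with CBL on the opposite strand, was at 0.042 FPKM or less in every library.

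PTPN11 (ENSG00000179295, chr12:112418351-112509913, plus strand) encodes SHP2, the tyrosine phosphatase that GAB2 binds and that is needed for full activation of the RAS pathway. It had the highest mean level of the 10 and the smallest difference. The libraries were at 45.4 and 44.7 FPKM in TF1-BA and at 47.4 and 44.7 FPKM in TF1-BAR, so that replicate 2 of the 2 lines could not be told apart. The log2FC was 0.03 ± 0.0628 (SE, adjusted p = 0.747, limma) with a 95% interval of -0.13 to 0.19. RPL6, a ribosomal protein gene on the opposite strand that shares 111 exonic bases with PTPN11, was at 220 and 221 FPKM in TF1-BA and 261 and 263 FPKM in TF1-BAR, and since the counting is not stated to use strand its part in the PTPN11 values was not tested.

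INPP5D (ENSG00000168918, chr2:233059967-233207903, plus strand) encodes SHIP1, which removes a phosphate from the lipid product of PI3K, and its promoter is the one with 3 AGGAAG motifs. It was at 37.5 and 38.9 FPKM in TF1-BA and at 47.0 and 49.3 FPKM in TF1-BAR. The replicates were close in both lines and far from the other line, with means of 38.2 ± 0.965 and 48.1 ± 1.58 FPKM and 5220 to 6874 fragments per library. INPP5D was higher in TF1-BAR by 26.0% (log2FC 0.33 ± 0.0625 SE, 95% interval 0.17 to 0.49, adjusted p = 0.0230, limma). Without TF1-BA replicate 1 or replicate 2 the log2FC was 0.30 or 0.36. Without TF1-BAR replicate 1 or replicate 2 it was 0.36 or 0.30. Of 18 alternative fits 13 gave an adjusted p under 0.05.

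DOK1 (ENSG00000115325, chr2:74549026-74557554, plus strand) encodes a docking protein first found as a heavily phosphorylated partner of RasGAP in CML progenitors, and it recruits RasGAP to dampen RAS. It was the one member lower in TF1-BAR. The libraries were at 12.5 and 12.0 FPKM in TF1-BA and at 8.91 and 9.16 FPKM in TF1-BAR with no overlap. The mean fell by 26.2%, from 12.2 ± 0.399 to 9.03 ± 0.180 FPKM (log2FC -0.42 ± 0.0720 SE, 95% interval -0.60 to -0.23, adjusted p = 0.0187, limma). Without TF1-BA replicate 1 or replicate 2 the log2FC was -0.39 or -0.45. Without TF1-BAR replicate 1 or replicate 2 it was -0.40 or -0.44. Of 18 alternative fits 15 gave an adjusted p under 0.05, the most of the 10. DOK1 had the fewest fragments, 428 to 689 per library. Its exons share 216 of 2800 bases with LOXL3 on the opposite strand, which was at 9.10 and 9.44 FPKM in TF1-BA and at 6.31 and 6.06 FPKM in TF1-BAR, and since the counting is not stated to use strand, reads of DOK1 and LOXL3 in those bases cannot be told apart.

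**Figure D2:**
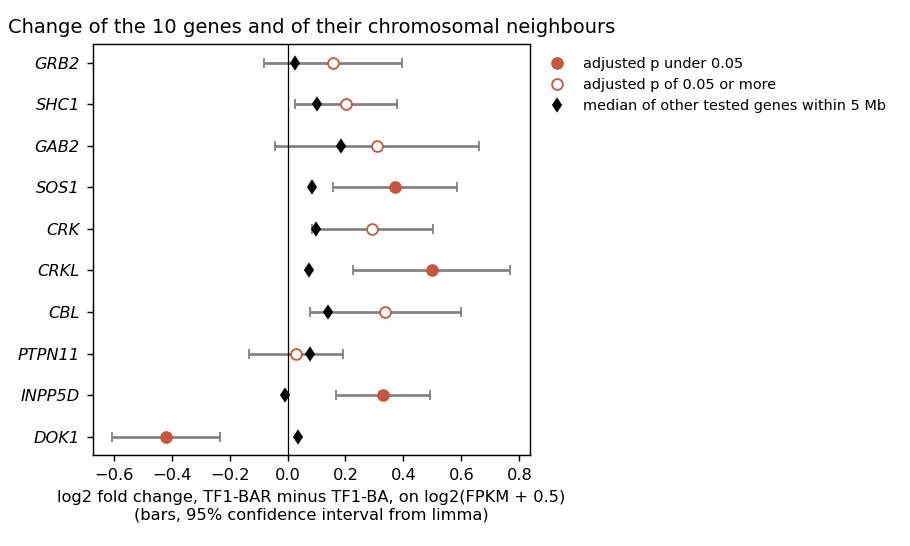
Log2 fold change of each member between TF1-BAR and TF1-BA on log2(FPKM + 0.5) (x axis), with bars for the 95% interval from limma, filled circles for an adjusted p under 0.05 and diamonds for the median of the other tested genes within 5 Mb. SOS1, CRKL, INPP5D and DOK1 are filled, and the diamonds lie between -0.01 and 0.18.

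The members lie on chromosomes 1, 2, 11, 12, 17 and 22, where the median log2FC of the other tested genes was 0.05 to 0.11. Chromosomes 10 and 20, whose genes had medians of -0.35 and 0.39, carry no member. Within 5 Mb of a member the other tested genes had medians from -0.01 (INPP5D, 40 genes) to 0.18 (GAB2, 79 genes). CRKL exceeded 83.7% of its 98 neighbours, SOS1 and INPP5D each exceeded 75% of 40, and DOK1 exceeded 7.14% of 70. CRK and CBL, which did not pass the test, exceeded 72.7% of 99 and 71.7% of 60. PTPN11, by contrast, sat amid its neighbours, above 45.3% of 75, and GRB2, SHC1 and GAB2 above 59.5% to 61.3% of theirs.

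Ordered by mean FPKM over the 4 libraries, the levels ran from PTPN11 (45.6 FPKM) and INPP5D (43.2 FPKM) through GRB2 (37.9 FPKM), SHC1 (32.5 FPKM), SOS1 (29.4 FPKM) and GAB2 (27.3 FPKM) to CRK (18.3 FPKM), CRKL (17.7 FPKM), DOK1 (10.6 FPKM) and CBL (9.68 FPKM). Neighbours in this order overlapped in their libraries except at 2 places, between GAB2 and CRK and between CRKL and DOK1. The phosphatases and the GRB2 module were thus above the CRK family, DOK1 and CBL in every library. INPP5D was below PTPN11 in both TF1-BA libraries, while in TF1-BAR it was at 47.0 against 47.4 FPKM in replicate 1 and at 49.3 against 44.7 FPKM in replicate 2. DOK1 was above CBL in both TF1-BA libraries (means of 12.2 against 8.48 FPKM) and below it in both TF1-BAR libraries (9.03 against 10.9 FPKM).

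The spread between replicates was uneven. In TF1-BAR, 8 of 10 members were higher in replicate 2 than in replicate 1, beside 55.2% of all genes tested, with a median log2 gap of 0.11 for the members and 0.03 for all genes. The gap was widest for GAB2, which was 29.2% higher in replicate 2, followed by CRKL at 19.3%, CBL at 18.4% and GRB2 at 17.0%. In TF1-BA, 5 of 10 members were higher in replicate 2, beside 46.3% of all genes tested. For 7 members the gap was larger in TF1-BAR than in TF1-BA, as for 59.9% of all genes tested, and the cause was not tested.

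Most of the members have paralogues, and whether any of these takes the place of a member at BCR-ABL was not tested. Of 18 listed, 17 were in the table and DOK5 was not analysed here. GRAP, SHC3, SHC4, CBLC and DOK7 were below the filter, which left GRAP2 as the tested relative of GRB2 and SHC2 as that of SHC1. Of the 12 tested, 5 were higher in TF1-BAR, beside 16.3% of all genes tested, 1 was lower, beside 10.5%, and 6 did not pass. The median log2FC was 0.22, and 2 genes were past both thresholds, beside 4.75% of all genes. On leaving out a library the number higher was 0 to 5, where 0.161% to 11.8% of all genes were, and the number lower 0 to 1, where 0.110% to 8.69% were.

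GRAP2, the haematopoietic relative of GRB2 also called GADS, had the largest change of any gene in these lists. It was at 3.69 and 3.42 FPKM in TF1-BA and at 14.5 and 16.6 FPKM in TF1-BAR (log2FC 1.98 ± 0.0988 SE, adjusted p = 0.00238, limma). Even so, its TF1-BAR level was below that of GRB2 in either line. DOK4 was at 3.91 and 3.15 FPKM in TF1-BA and at 9.37 and 9.76 FPKM in TF1-BAR (log2FC 1.33, adjusted p = 0.00565, limma). SHC2 was at 1.91 and 1.97 FPKM in TF1-BA and at 3.89 and 4.35 FPKM in TF1-BAR (log2FC 0.92, adjusted p = 0.00791). These low genes gained more on the log scale than any of the 10 members, though SHC2 remained far under SHC1.

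DOK2, the other DOK protein of myeloid cells and a partner of RasGAP like DOK1, was at 5.67 and 5.29 FPKM in TF1-BA and at 9.13 and 9.12 FPKM in TF1-BAR (log2FC 0.69, adjusted p = 0.00828, limma). Its direction was thus opposite to that of DOK1. INPPL1, the SHIP2 gene, was higher with a log2FC of 0.35 (adjusted p = 0.0391), from 22.3 and 23.1 to 27.2 and 30.8 FPKM. GAB3, which at 68.2 and 67.7 FPKM in TF1-BA exceeded all 10 members, was the one paralogue called lower, at 52.7 and 54.6 FPKM in TF1-BAR (log2FC -0.34, adjusted p = 0.0180). GAB1, SOS2, CBLB, PTPN6, DOK3 and DOK6 did not pass, with log2FC values between -0.27 and 0.28.

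Ratios of FPKM between a member and its paralogue within a library do not depend on its scaling. They were taken for the 7 pairs in which both genes passed the filter, and with 2 libraries against 2 the smallest p a two-sided exact permutation test can give is 0.333, so that no pair could pass. The test and the log2 difference used the same ratios with 0.5 FPKM added to each gene. DOK1 to DOK2 had the largest difference of the 7, from 2.21 and 2.26 in TF1-BA to 0.976 and 1.00 in TF1-BAR (log2 difference -1.11 with 0.5 FPKM added). GAB2 to GAB1 was 13.6 and 15.5 in TF1-BA and 20.7 and 25.9 in TF1-BAR, and CBL to CBLB was 8.91 and 7.51 against 11.7 and 12.1. SOS1 to SOS2 was 4.07 and 3.57 in TF1-BA and 5.15 and 4.64 in TF1-BAR. In each of these pairs, in CRK to CRKL and in PTPN11 to PTPN6 the 2 lines did not overlap, at an exact permutation p of 0.333. PTPN11 to PTPN6, the SHP2 to SHP1 ratio, was 2.85 and 2.73 in TF1-BA and 2.63 and 2.44 in TF1-BAR. INPP5D to INPPL1 overlapped between the lines, at 1.69 in both TF1-BA libraries and at 1.73 and 1.60 in TF1-BAR (exact permutation p = 1).

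**Figure D3:**
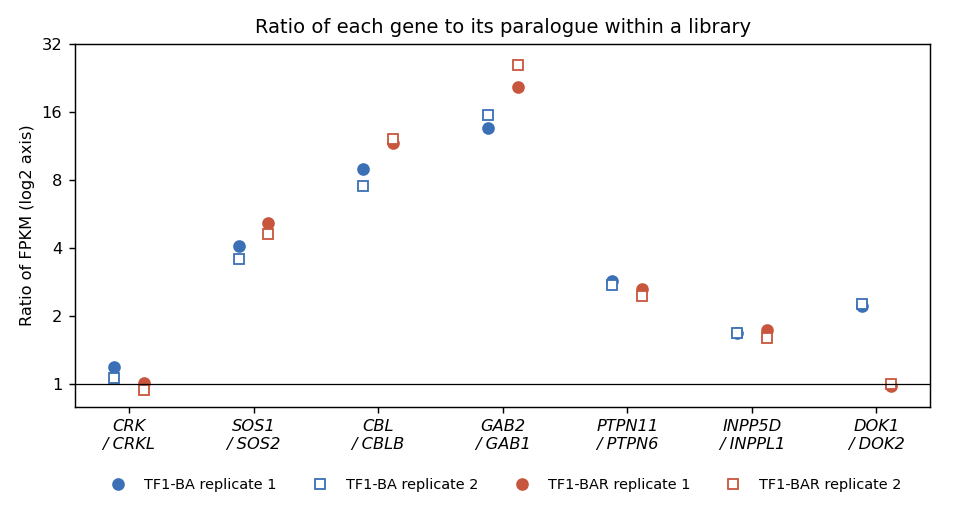
Ratio of the FPKM of a member to that of its paralogue within each of the 4 libraries (y axis, log2 scale) for 7 pairs, with circles for replicate 1, squares for replicate 2, blue for TF1-BA and red for TF1-BAR. DOK1 exceeded DOK2 at a mean ratio of 2.24 in TF1-BA and was level with it at 0.990 in TF1-BAR.

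The wider list of 42 partners held the kinases themselves and the proteins that bind to the members, such as NCK, VAV and PI3K subunits, RAS and its GAPs, other phosphatases and CBL partners. PIK3R2 and UBASH3A were below the filter. Of the 40 tested, 9 were higher in TF1-BAR, beside 16.3% of all genes tested, 8 were lower, beside 10.5%, and 23 did not pass. There were 2 genes past both thresholds, beside 4.75% of all genes, and a median log2FC of -0.06, below the 0.07 of all genes tested. In the same fits without a library the number of partners higher was 0 to 5 and the number lower 0 to 8. With no filter on low values 3 were higher and 3 lower, where 2.76% and 1.93% of all genes were. By sign alone, 18 partners had a positive log2FC and 22 a negative one.

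Both genes of the fusion kinase were higher in TF1-BAR. ABL1 was at 41.1 and 42.9 FPKM in TF1-BA and 84.0 and 90.3 FPKM in TF1-BAR (log2FC 1.04, adjusted p = 0.00374, limma), and BCR at 14.5 and 14.9 FPKM in TF1-BA and 26.1 and 31.1 FPKM in TF1-BAR (log2FC 0.93, adjusted p = 0.00774). Fragments of the viral fusion map to both genes, and the FPKM values do not separate them from the cell's own ABL1 and BCR. Relative to ABL1, all 10 members were lower in TF1-BAR with no overlap between the lines, as were 86.5% of all genes tested. PTPN11 was at a mean of 1.07 times ABL1 in TF1-BA and 0.530 times in TF1-BAR, GRB2 at 0.851 and 0.459, CRKL at 0.346 and 0.238 and DOK1 at 0.292 and 0.104.

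Among the adaptors of the partner list, NEDD9, a docking protein of the CAS family that CRK proteins bind, was at 1.07 and 1.60 FPKM in TF1-BA and 3.38 and 3.82 FPKM in TF1-BAR (log2FC 1.17, adjusted p = 0.0127, limma). VAV1, the haematopoietic exchange factor for RAC, was higher with a log2FC of 0.68 (adjusted p = 0.00781), the adaptor NCK2 with 0.62 (adjusted p = 0.0241), and PAG1, the membrane anchor of the kinase CSK, with 0.58 (adjusted p = 0.0187). ABI1, which links ABL kinases to the actin machinery, was the most reduced partner, from 16.1 and 15.1 to 8.38 and 8.11 FPKM (log2FC -0.88, adjusted p = 0.00534). It lies on chromosome 10, where the other tested genes within 5 Mb had a median log2FC of -0.52.

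PIK3CB, a catalytic subunit of PI3K, was at 32.8 and 33.5 FPKM in TF1-BA and at 21.6 and 21.5 FPKM in TF1-BAR (log2FC -0.61, adjusted p = 0.00672, limma). SH3KBP1, also known as CIN85 and a binding partner of CBL, fell with a log2FC of -0.52 (adjusted p = 0.0132), and the receptor phosphatase PTPRJ with -0.51 (adjusted p = 0.0197).

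**Figure D4:**
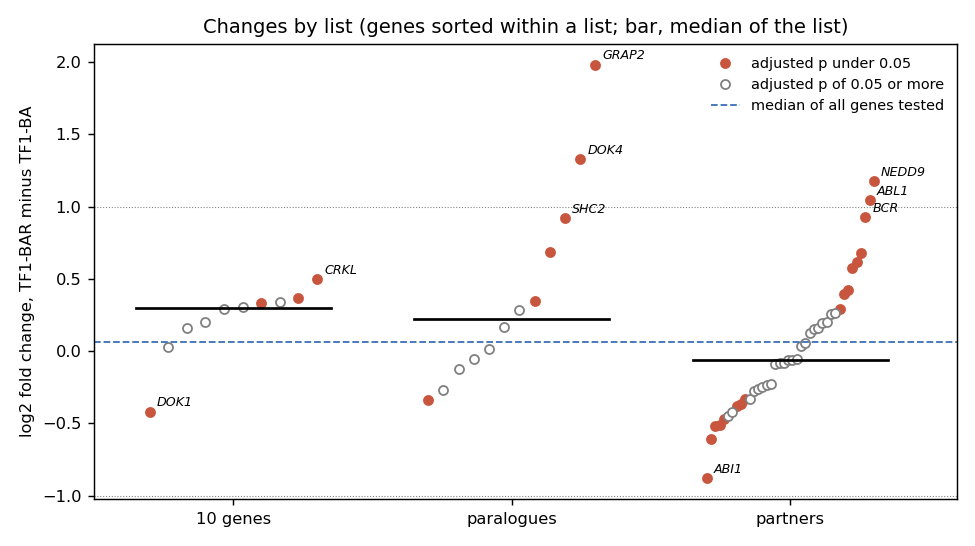
Log2 fold change between TF1-BAR and TF1-BA on log2(FPKM + 0.5) (y axis) of the 10 members, the 12 tested paralogues and the 40 tested partners, sorted within each list, with filled circles for an adjusted p under 0.05, black bars for the median of a list, a dashed line for the median of all genes tested and dotted lines at log2 fold changes of 1 and -1. The members span -0.42 to 0.50, the paralogues -0.34 to 1.98 and the partners -0.88 to 1.17.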

How the data were processed

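The authors made 2 libraries per line from total RNA of TF1-BA and TF1-BAR cells with the NEBNext Ultra kit. Per the paper's methods and the submitters' processing notes, reads were mapped to GRCh38 with TopHat2 2.0.13 and quantified with Cufflinks and Cuffdiff 2.2.0, and the deposited values are FPKM per gene and library. The annotation release is not given in the sources used here.

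The deposited FPKM were used unscaled. Library sizes and fragments were recovered as the numbers at which values become whole within 0.005 fragments, 14560 genes at the exon length of GENCODE 44 and 16084 at a fitted length, with 209 not whole. Fitted lengths underlie the fragments of 7 members, which are estimates. limma 3.58.1 in R 4.3.3 (lmFit, eBayes with trend) was run on log2(FPKM + 0.5) over the 15519 genes whose mean FPKM reached 0.5, with Benjamini-Hochberg adjustment and thresholds of adjusted p 0.05 and log2 fold change 1. The scripts were tested on simulated data. The members, paralogues, partners and markers were chosen with earlier results of these data known, although the rule for members is a list of symbols with no threshold on a value. All members were named, and of the paralogues and partners those past both thresholds plus up to 4 others per direction by size among those with an adjusted p under 0.05. Genes of the tested pairs were named as well. Some marker genes are not reported here. Samples were grouped by the name in their labels. The alternatives were other pseudocounts, filters, scalings, limma settings, a replicate block, each library left out, and voom on recovered fragments. Protein-coding genes only, and removal of a GC, length and level trend with and without the block, were added after seeing the data.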

Additional observations from a re-analysis of the deposited data

How the results depend on the processing

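The count of members past both thresholds was 0 in each direction in all 18 alternative fits. Members higher at an adjusted p under 0.05 numbered 3 in the fit reported, 0 with no filter on low values and with eBayes without trend, 6 after rescaling to TPM and by voom, 5 with protein-coding genes only, and 0 to 5 on leaving out a library. 1 member was lower, and 0 to 1 on leaving out a library. Paralogues higher numbered 5, and 0 to 5 on leaving out a library. The 1 paralogue lower became 0 without the trend, 2 by voom and 0 to 1 on leaving out a library. Partners higher numbered 9, 3 with no filter and 0 to 5 on leaving out a library. Partners lower numbered 8, 3 with no filter, 5 without the trend, 15 by voom, 14 with protein-coding genes only and 0 to 8 on leaving out a library. The share of all genes called moved as well. It was 16.3% higher and 10.5% lower in the fit reported, 2.76% and 1.93% with no filter, 12.4% and 7.47% without the trend, 20.5% and 8.72% after rescaling to TPM, 22.4% and 15.4% by voom, 23.4% and 18.3% with protein-coding genes only, and 0.161% to 11.8% and 0.110% to 8.69% on leaving out a library.

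The log2FC of PTPN11 was -0.012 without TF1-BAR replicate 1, the lowest of a range up to 0.073 on leaving out a library. The log2 difference of INPP5D to INPPL1 was 0.037 without TF1-BAR replicate 2, the highest of a range from -0.073. The other members and pairs kept their direction in every alternative run. A fit without a library assumes that the lone library varies like the other line. All genes with an adjusted p under 0.05 numbered 4167 in the fit reported, 1446 with no filter and 42 to 3176 on leaving out a library.

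The deviations of same-numbered libraries correlated at 0.0646, so the numbers are not taken to pair the libraries. With the replicate block 3 members were higher and 1 lower, 5 paralogues higher and 1 lower, and 7 partners higher and 10 lower, beside 15.1% higher and 10.5% lower of all genes. No scaling moved the median log2FC of all genes by over 0.07.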
